A study of Mus musculus with 4 samples.

Results

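The genes described here are 44 mouse genes of nutrient sensing: the subunits of the mTOR complexes, the Rag GTPases and their regulators, AMPK, and the AKT branch of insulin signalling. They were taken from a fixed list of names, and all 44 were found among 21887 protein-coding genes on chromosomes 1 to 19, X and Y. The study mapped the transcription factor Deaf1 by chromatin immunoprecipitation and sequencing (ChIP-seq) in C2C12, a mouse myoblast line (myoblasts are the precursor cells of muscle fibres). The cells were unmodified, and all libraries came from cells grown in serum-containing medium. No starvation, drug or differentiation is named in the labels. The labels describe fixation with formaldehyde and shearing by sonication but also use the term native ChIP, which normally means unfixed chromatin, so it is not settled whether crosslinked chromatin was used. The 2 ChIP libraries used an anti-Deaf1 antibody, and 2 input libraries used none. The labels do not say whether the replicates came from separate cultures. Input libraries were not analysed here by themselves and enter only through the background carried by the peak lists. With a single condition, no change in occupancy was measured, and neither RNA nor protein levels were part of the data.

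mTOR is a kinase that works in a pair of protein complexes, mTORC1 and mTORC2. When amino acids are plentiful, the Rag GTPases, anchored on the lysosome by Ragulator, recruit mTORC1 to Rheb, which switches it on. mTORC1 then drives protein synthesis and restrains autophagy, while the TSC complex, GATOR1 and AMPK, the sensor of low cellular energy, hold it back. In muscle this network balances growth against breakdown. Deaf1 binds DNA through a SAND domain whose known core sequence is TTCG, and the series title links it to autophagy and muscle regeneration.

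A gene was called bound where a Deaf1 region lay within 1 kb of either end of its annotated span. Reproducible regions, the 1550 entries of the authors' combined list, met this rule at 11 of the 44 genes (25.0%), against 6.95% of the other 21843 protein-coding genes. The 11 genes were Mtor, Akt1s1, Tsc2, Rheb, Lamtor3, Wdr24, Prkab1, Prkag1, Pdpk1, Eif4ebp2 and Rps6kb2. Each had a peak in both libraries, as does every region of the combined list. No test of this excess was made, because the genes were listed with earlier results of these data known.

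The promoters that follow are shown because they carry the Deaf1 region in both libraries. Each is the part of the 250 bases before the annotated start that lies in no annotated gene span, written 5′ to 3′ on the gene's own strand from RefSeq, build GRCm38.p6. The starts of Akt1s1, Pdpk1 and Tsc2 also carry a region but are not printed. All of their 250 bases lie in annotated gene spans, except 3 bases at Tsc2. Capitals mark TTCG or, where the core is on the other strand, CGAA. The printed parts of Mtor and Eif4ebp2 hold the summits of both libraries. Those of Rheb, Prkab1 and Prkag1 hold part of the region but neither summit. At Prkab1 the TTCG nearest the summits lies within the gene span and is not printed.
Mtor (chr4:148448332-148448581, plus strand): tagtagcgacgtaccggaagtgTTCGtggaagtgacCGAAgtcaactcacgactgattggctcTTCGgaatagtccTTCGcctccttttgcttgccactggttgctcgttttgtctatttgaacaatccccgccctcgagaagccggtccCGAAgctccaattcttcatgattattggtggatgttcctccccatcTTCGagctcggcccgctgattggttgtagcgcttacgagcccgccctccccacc
Rheb (chr5:24842362-24842611, minus strand): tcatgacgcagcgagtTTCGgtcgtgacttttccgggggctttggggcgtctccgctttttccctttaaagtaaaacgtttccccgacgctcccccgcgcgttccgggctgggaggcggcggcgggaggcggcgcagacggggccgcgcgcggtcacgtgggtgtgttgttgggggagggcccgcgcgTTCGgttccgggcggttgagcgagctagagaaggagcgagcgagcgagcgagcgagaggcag
Prkab1 (chr5:116024504-116024678, minus strand): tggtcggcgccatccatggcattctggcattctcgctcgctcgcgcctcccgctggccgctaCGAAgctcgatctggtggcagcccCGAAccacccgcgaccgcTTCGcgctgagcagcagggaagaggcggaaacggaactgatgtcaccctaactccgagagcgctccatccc
Eif4ebp2 (chr10:61452791-61452919, minus strand): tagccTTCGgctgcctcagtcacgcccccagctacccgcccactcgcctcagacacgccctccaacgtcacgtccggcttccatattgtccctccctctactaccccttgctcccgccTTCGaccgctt
Prkag1 (chr15:98831509-98831668, minus strand): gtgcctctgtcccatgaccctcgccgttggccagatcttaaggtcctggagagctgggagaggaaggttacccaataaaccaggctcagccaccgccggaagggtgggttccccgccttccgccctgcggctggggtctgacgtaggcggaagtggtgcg
The Mtor promoter is dense in the core sequence, and the Prkag1 promoter holds none.

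**Figure D1:**
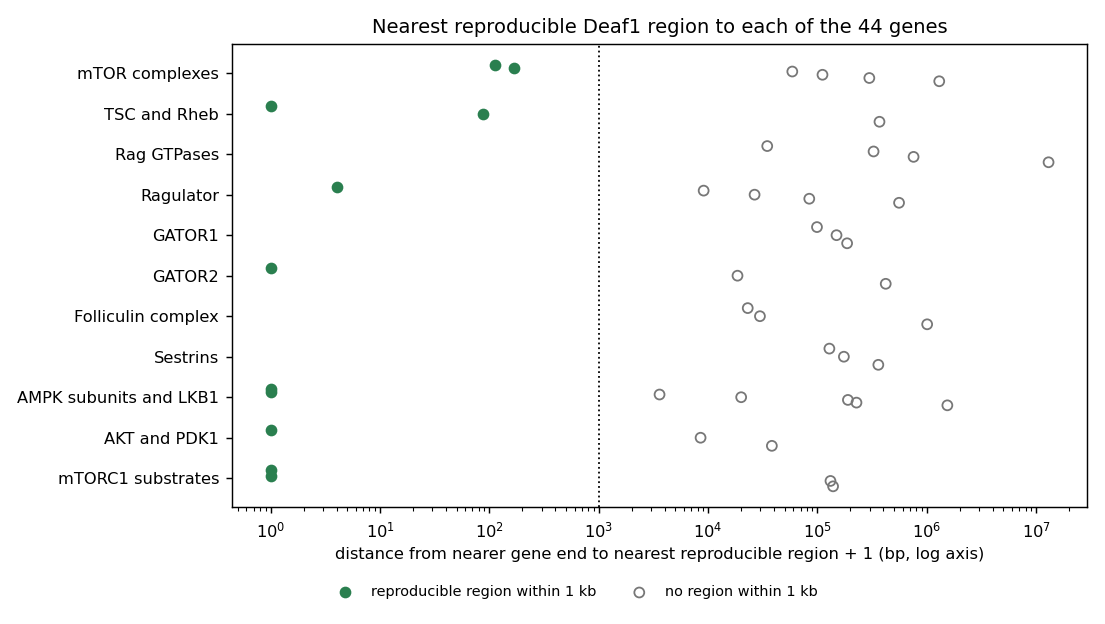
Distance from the nearer end of each of the 44 genes to the nearest reproducible Deaf1 region, in bp plus 1 on a log axis, by role; filled points are within 1 kb (dotted line). The 11 bound genes lie at 165 bp or less and the other 33 at 3594 bp or more, so the threshold falls in an empty range.

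Calls in the combined list were the same at 250 bp as at 1 kb, and a window of 5 kb added Prkaa1. The share of other genes was 6.13% at 250 bp, 6.95% at 1 kb and 8.74% at 5 kb. Among bound genes the region edge lay at most 165 bp from the gene end, at Akt1s1, and 7 regions overlapped the end itself. Just outside the threshold came Prkaa1 at 3594 bp, then Akt1 at 8529 bp and Lamtor1 at 9098 bp. The 33 unbound genes had a median distance of 138884 bp.

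Of the 6 genes for mTOR complex subunits, 2 were bound. Mtor encodes the kinase itself. Its region lay on chromosome 4 from 148448281 to 148448470, outside the gene span and with no other gene end within 1 kb. The fold enrichment, which is the authors' own value for ChIP signal over local background, was 8.53 in replicate 1 and 13.6 in replicate 2. This is a mean of 11.1 ± 3.59 (SD, n = 2). Replicate 2 was higher, but the fragments stacked at the summit, as recovered from the authors' fold and p, had overlapping counting intervals. They numbered 30 (95% exact Poisson interval 20.2 to 42.8) in replicate 1 and 41 (29.4 to 55.6) in replicate 2. In fold this peak exceeded 68.9% of all peaks of replicate 1 and 93.6% of those of replicate 2. Its irreproducible discovery rate (IDR) was 0.0159. The IDR given here is the global one, which estimates the share of irreproducible regions among all those ranked at least as high.

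Akt1s1 encodes PRAS40, an inhibitory subunit of mTORC1 that AKT phosphorylates. Its counted region (chr7:44848854-44849059) was within the neighbouring gene Tbc1d17 and closer to an end of that gene (165 bp from the replicate 2 summit) than to Akt1s1 (310 bp). The fold enrichment was 7.43 in each library, with 26 fragments in replicate 1 and 28 in replicate 2. A further reproducible region sat on the annotated start of Akt1s1, from 44850270 to 44850393, with its summits 27 and 26 bp upstream of that start. It had fold enrichments of 5.07 and 9.39 and an IDR of 0.317. The span rule did not count it, because the annotated start lies inside the span, which begins at 44849224. The nearer edge of this region was just over 1 kb from that end, and the replicate 2 summit was 1122 bp from it. Between these regions replicate 2 had another peak, of 19 fragments, that was not called in replicate 1. Rptor, Rictor, Mlst8 and Deptor, which encode the defining scaffold subunits of both complexes, a shared subunit and an inhibitor, had no peak at an end in either library.

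The TSC complex and its target Rheb had 2 bound genes of 3. Tsc2 encodes the subunit that turns Rheb off. Its region, on chromosome 17 from 24632488 to 24632682, covered a start shared head to head with Nthl1, a DNA repair gene whose span begins at 24632680, next to the end of Tsc2 at 24632676. The replicate 2 summit was 31 bp from the Tsc2 end and 35 bp from the Nthl1 end, so the region cannot be given to either gene. Fold enrichment was 8.10 in replicate 1 and 5.59 in replicate 2, a mean of 6.84 ± 1.78 (SD, n = 2). The order of the fragments was the opposite, with 22 in replicate 1 (13.8 to 33.3) and 37 in replicate 2 (26.1 to 51.0). The background was 1.84 fragments in replicate 1 and 5.80 in replicate 2.

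Rheb encodes the small GTPase that activates mTORC1. Its region, on chromosome 5 from 24842447 to 24842682, was upstream of the start, with no other gene end within 1 kb. It had fold enrichments of 9.99 and 8.74, a mean of 9.37 ± 0.885 (SD, n = 2), from 27 and 26 fragments. The libraries were close to each other at this gene. The IDR was 0.0650. Tsc1, the partner of Tsc2, was unbound, and the nearest region was 369014 bp from its end.

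On the lysosomal arm, none of the 4 Rag GTPase genes and 1 of the 5 Ragulator genes had a reproducible region. Lamtor3, which encodes a Ragulator subunit, carried a region on chromosome 3 from 137918420 to 137918552, 3 bp outside its span. Fold enrichment there was 7.14 and 8.74, a mean of 7.94 ± 1.13 (SD, n = 2), from 19 (11.4 to 29.7) and 26 (17.0 to 38.1) fragments.

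The libraries disagreed on Lamtor1 and Rragc. Lamtor1, the Ragulator subunit that anchors the complex to the membrane, had a peak only in replicate 1, with 12 fragments (6.20 to 21.0) and a fold of 4.64, ranked 1745 of 1860 by p. Rragc, a Rag GTPase, had a peak only in replicate 2, with 16 fragments (9.15 to 26.0), a fold of 5.50 and rank 2233 of 3126. Both were among the weaker peaks of their library. A peak missing from 1 list is a peak not called there, not a measured absence.

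GATOR1, which inactivates the Rag GTPases when amino acids are scarce, had no reproducible region at its 3 genes. Nprl2 had a peak in replicate 2 only, of 18 fragments (10.7 to 28.4) and fold 6.15. GATOR2, which opposes GATOR1, had 1 bound gene of 3, Wdr24. The Wdr24 region, on chromosome 17 from 25823523 to 25823698, covered the end of the gene, with the replicate 2 summit 14 bp outside it. It was among the tallest of the set, with 49 fragments in replicate 1 (36.3 to 64.8) and 57 in replicate 2 (43.2 to 73.9). The folds of 6.99 and 14.9, a mean of 10.9 ± 5.57 (SD, n = 2), stood further apart than the fragments, beside backgrounds of 6.15 and 2.90 fragments. Its IDR was 0.0119. The 3 genes of the folliculin complex, which acts on the Rag GTPases, and the 3 sestrin genes, whose products inhibit GATOR2, had no peak at an end in either library.

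AMPK is assembled from a catalytic α, a scaffold β and a nucleotide-binding γ subunit. Of its 6 genes listed here and Stk11, which encodes the upstream kinase LKB1, 2 of 7 were bound, a β and a γ gene. Prkag1, a γ gene, had the highest mean fold enrichment of the 11 bound genes, with 11.8 in replicate 1 and 13.1 in replicate 2, a mean of 12.4 ± 0.921 (SD, n = 2). Its summits held 39 (27.7 to 53.3) and 50 (37.1 to 65.9) fragments, and they lay 3 and 4 bp downstream of the annotated start. The region spanned chromosome 15 from 98831364 to 98831591 and had an IDR of 0.0103. An end of the neighbouring gene Kmt2d was 165 bp from the summit, and the annotated start of Kmt2d was 39701 bp away.

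Prkab1, a β gene, had the lowest ratio of folds between libraries, 0.387 for replicate 2 over replicate 1. Its region, on chromosome 5 from 116024375 to 116024613, had a fold enrichment of 11.8 in replicate 1 and 4.56 in replicate 2, a mean of 8.17 ± 5.11 (SD, n = 2). The fragments hardly differed, with 32 (21.9 to 45.2) and 30 (20.2 to 42.8), while the background was 1.80 in replicate 1 and 5.80 in replicate 2. Its IDR was 0.334. The catalytic genes Prkaa1 and Prkaa2, the other β and γ genes Prkab2 and Prkag2, and Stk11 had no peak within 1 kb of an end in either library.

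In the insulin branch, 1 of 3 genes was bound. Pdpk1 encodes PDK1, the kinase that activates AKT and S6 kinase. Its region, on chromosome 17 from 24073269 to 24073754, was the widest of the 11 (486 bp), had the most fragments, 60 (45.8 to 77.2) and 64 (49.3 to 81.7), and the lowest IDR, 0.00907. This region lay at the 3′ end of Pdpk1, however. The replicate 2 summit was 77 bp upstream of the annotated start of Kctd5 and 68032 bp from the nearest annotated start of Pdpk1. A weaker reproducible region, from 24141562 to 24141764, did sit on an annotated start of Pdpk1, with 21 and 23 fragments, folds of 4.87 and 7.43 and an IDR of 0.511. Akt2, the AKT gene known for insulin-stimulated glucose uptake in muscle, had a peak 63 bp inside its start in replicate 2 only, with 15 fragments (8.40 to 24.7) and a fold of 5.18. Akt1 had none.

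Among the genes for direct mTORC1 substrates, 2 of 4 were bound. Eif4ebp2 encodes a repressor of cap-dependent translation that mTORC1 inactivates. Its region, on chromosome 10 from 61452781 to 61453014, had fold enrichments of 5.10 and 9.39, a mean of 7.24 ± 3.04 (SD, n = 2), from 22 (13.8 to 33.3) and 28 (18.6 to 40.5) fragments. Rps6kb2, a gene for an S6 kinase, had the weakest mean of the 11 regions, on chromosome 19 from 4163271 to 4163421, with folds of 4.21 and 7.34 from 18 (10.7 to 28.4) and 22 (13.8 to 33.3) fragments. Its score was the lowest in the combined list, 121, a value shared by 377 regions and equal to an IDR of 0.511. The better-known relatives Eif4ebp1 and Rps6kb1 were unbound, with the nearest region 131496 bp and 138884 bp from an end.

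**Figure D2:**
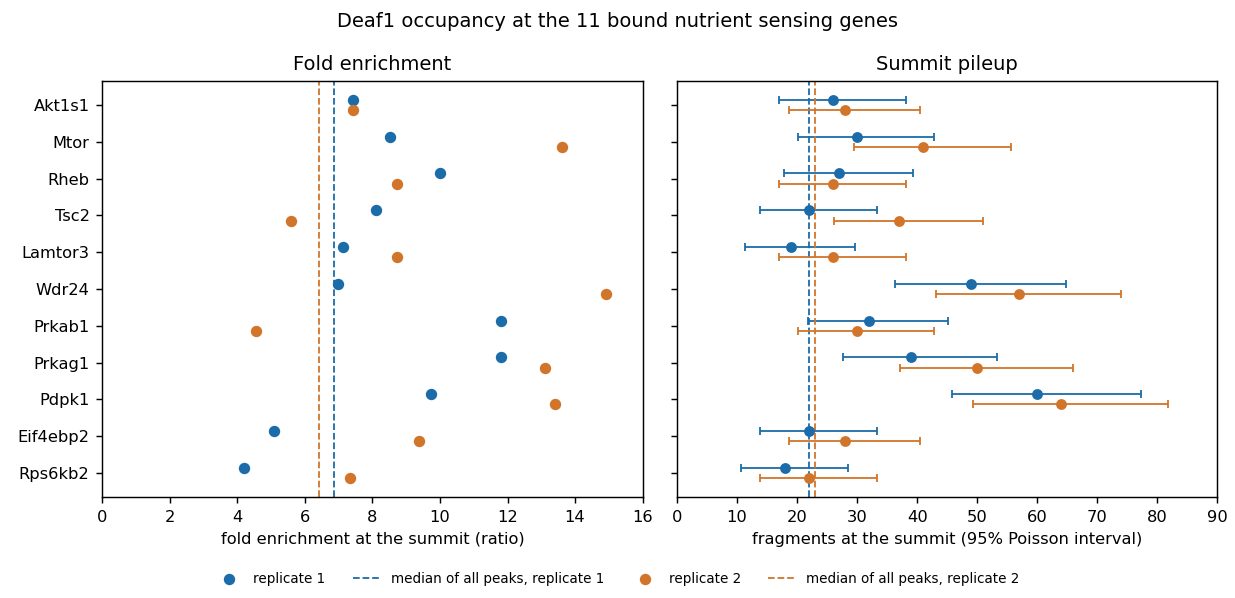
Fold enrichment (left, a ratio) and fragments at the summit (right, with 95% exact Poisson intervals) at the 11 bound genes, in replicate 1 (blue) and replicate 2 (orange); dashed lines are the medians of all peaks of each library. In each library 9 of the 11 genes exceed the median fold, which also covers peaks outside the combined list. Pdpk1, Wdr24 and Prkag1 have the most fragments, and the intervals of the libraries overlap at every gene shown.

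Seen together, the 11 regions were moderate in strength for this data set. In replicate 1 their fold enrichment had a median of 8.10 and a range of 4.21 to 11.8. In replicate 2 the median was 8.74 and the range 4.56 to 14.9. The medians of all peaks were 6.87 (1860 peaks) and 6.41 (3126 peaks). Those medians include peaks outside the combined list, whereas the 11 regions all come from it. A median fold over the combined regions alone is not given. Summits of the 11 regions held 18 to 60 fragments in replicate 1 and 22 to 64 in replicate 2, so the counting error of most is wide. The median summit of all peaks held 22 and 23 fragments. Replicate 2 had the higher fold at 7 genes, the lower at 3, and the same to 3 digits at Akt1s1, with ratios from 0.387 to 2.13. The ratios of fragments were narrower, from 0.938 to 1.68. Summits of the libraries lay a median of 6 bp and at most 37 bp apart. An IDR of at most 0.05 was reached by 4 of the 11 regions (36.4%), those at Mtor, Prkag1, Wdr24 and Pdpk1, against 39.2% of all 1550 regions. At that limit 9.09% of the 44 genes were bound, against 3.12% of other genes.

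Read library by library, 12 genes (27.3%) had a peak at an end in replicate 1, where 7.49% of other genes had one, and 14 (31.8%) in replicate 2, where the value was 11.2%. Peaks in both libraries were found at 11 genes, against 7.02% of other genes. Replicate 2 alone had a peak at 3 genes (Akt2, Nprl2 and Rragc), against 4.18% of other genes, and replicate 1 alone at Lamtor1, against 0.462%. No peak at an end was called in either library at 29 genes.

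**Figure D3:**
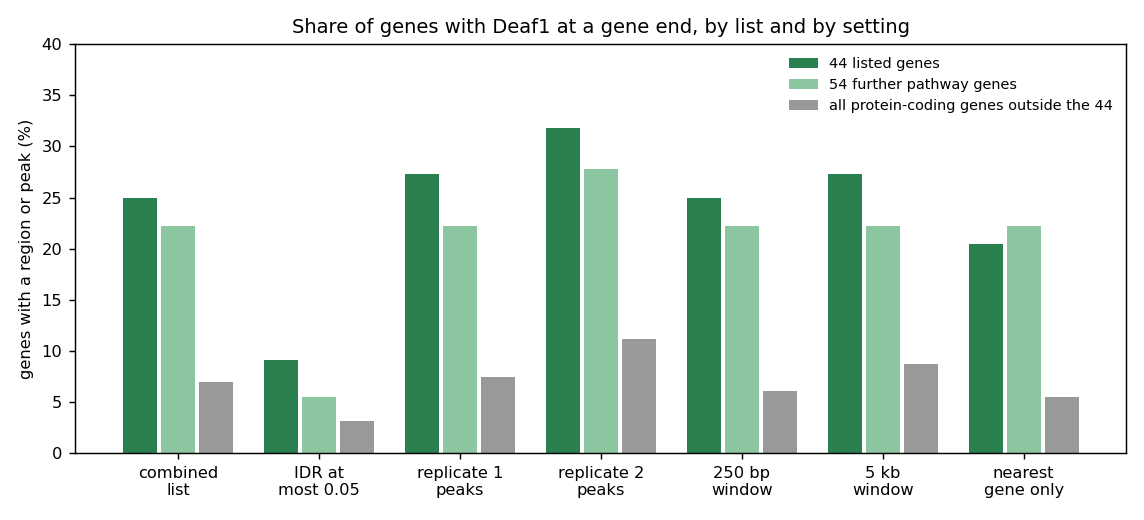
Percent of genes with a Deaf1 region or peak at a gene end, for the 44 listed genes, 54 further pathway genes and all protein-coding genes outside the 44, under 7 settings. The 44 genes run from 9.09% to 31.8% and the others from 3.12% to 11.2%; in each setting drawn the 44 have a higher share than the genes outside the list.

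The share of bound genes also varied with features of the genes themselves. Another protein-coding gene had an end within 1 kb at 17 of the 44 genes (38.6%) and at 24.8% of other genes. Among genes with such a neighbour, 7 of 17 listed genes (41.2%) and 15.3% of others were bound. This split looked for a neighbour near the gene, not near its region. Mtor and Wdr24 are among the 7, but no other gene end lay within 1 kb of their regions. Of the 11 counted regions, 5 had the end of another coding gene within 1 kb. Among genes without one, the values were 4 of 27 (14.8%) and 4.20%. CpG content moved with binding too. Among genes with a promoter of 20 or more CpG in 300 bases, 7 of 28 listed genes (25.0%) and 12.3% of others were bound. Among genes with fewer CpG, 1 of 11 (9.09%) and 3.76% were bound. Only the 39 listed genes with a promoter sequence enter this split, so the bound genes Lamtor3, Wdr24 and Rps6kb2 are not in it. The rise was not steady, since the share of other genes' starts with a region was 14.8% at 20 to 29 CpG and 10.9% at 30 or more. The part of either feature in the count was not tested.

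A region at a gene end need not mark that gene's start. Of the 11 bound genes, 8 have a start in the RefSeq promoter table, and the counted summit lay within 250 bp of it at 5 of them (Eif4ebp2, Mtor, Prkab1, Prkag1 and Tsc2) and 268 bp upstream at Rheb. At Akt1s1 and Pdpk1 the counted region was at another gene's end, and the region at their own start, described above, was not the one counted. At Pdpk1 the start region was weaker than the counted one in both libraries. At Akt1s1 it was lower in fold in replicate 1 and higher in replicate 2. Lamtor3, Wdr24 and Rps6kb2 have no entry. Counting only annotated starts, 8 of 39 listed genes (20.5%) had a region within 1 kb, against 7.28% of other genes. Giving each region only to the coding gene with the nearest end left 9 listed genes (20.5%), without Akt1s1 and Pdpk1, against 5.51% of other genes. Counting regions anywhere in a span plus 1 kb added no listed gene to the 11, while the share of other genes was 7.65%.

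The core sequence TTCG was searched on both strands (TTCG or CGAA, overlapping matches counted each) in the 300 bases from 250 before to 50 after each annotated start. It was present at 6 of the 8 listed starts with a region (75.0%) and at 21 of the 39 listed starts without one (53.8%). Among other genes the shares were 70.8% of 1492 starts with a region and 47.4% of 19724 without, and 49.1% of all 21263 promoters held it. The bound promoters were also richer in CpG, which the core contains. The median number of CpG was 29.5 and 21 at listed starts with and without a region, and 23 and 11 at those of other genes. Among other genes' promoters with 20 to 29 CpG, the core was present in 73.6% of bound and 65.8% of unbound ones. The shares were 64.8% and 61.6% at 10 to 19 CpG, and 77.2% and 62.5% at 30 or more. At 0 to 9 CpG the core was in 26 of 57 bound and 2646 of 9130 unbound promoters. The bound share was thus higher in every CpG range, least so at 10 to 19. A match describes the sequence only and is not a site.

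At Mtor 6 matches lay in the window, and the summits fell between the first and the second of the sequence printed above, 2 and 3 bases from a match in replicates 1 and 2. At Prkab1 there were 5 matches, the nearest 0 and 19 bases from the summits, and at Eif4ebp2 2 matches, the nearest 22 and 11 bases away. At Rheb and Tsc2 the nearest match in the window was 34 to 49 bases from the summits, and at Akt1s1 it was 145 bases or more. The Rheb summits, 271 and 268 bp upstream of the start, lay outside the window. Sequence around them was not searched, so a nearer match there is not excluded. Prkag1, with the highest mean fold of the set, and Pdpk1 had no match in the window.

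**Figure D4:**
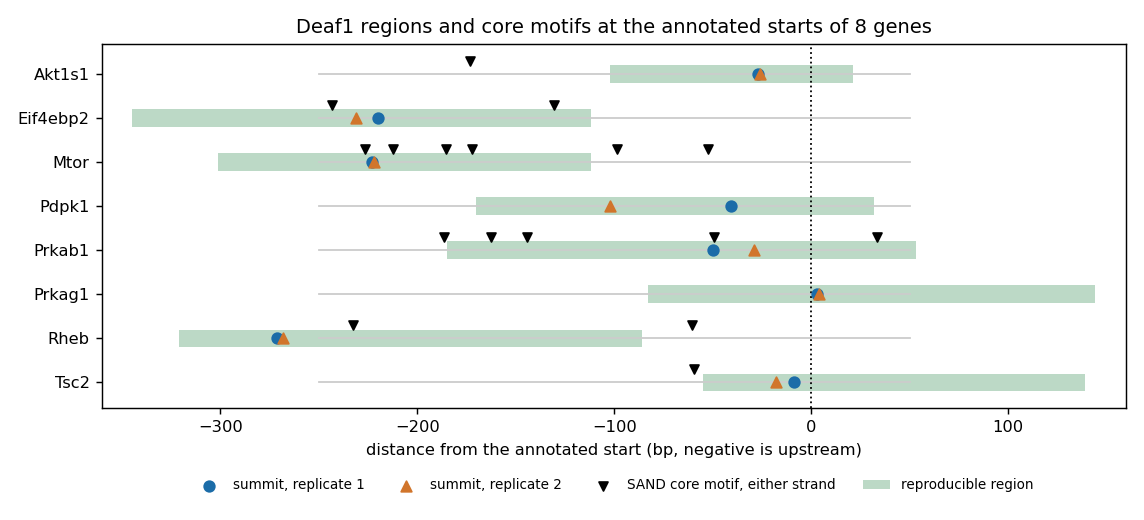
Reproducible regions (green bars), summits of replicate 1 (circles) and replicate 2 (triangles) and matches to the Deaf1 core sequence (black marks) around the annotated starts of the 8 listed genes that have one with a region; the grey line is the 300 bases searched. Summits lie from 271 bp upstream to 4 bp downstream of the start, and Pdpk1 and Prkag1 have no match.

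Of 54 further genes of mTOR assembly, amino acid sensing, insulin input and mTORC1 output, 12 (22.2%) had a reproducible region at an end, against 6.95% of all protein-coding genes outside this list. At an IDR of at most 0.05 the shares were 5.56% and 3.12%. All of the TSC complex and Rheb homologue pair (Tbc1d7 and Rhebl1) and 3 of 6 genes of mTORC2 and mTOR assembly (Mapkap1, Tti1 and Tti2) were among them. So were Sec13, a further GATOR2 gene, and Lars, which encodes a leucyl-tRNA synthetase, 2 of 13 of insulin and PI3K input (Pik3ca and Pik3r2), Camkk2 among 6 AMPK partners and Rps6 among 13 outputs. None of the 3 amino acid transporters was bound.

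Tti1, whose product helps to assemble mTOR and related kinases, had folds of 15.0 and 11.0, a mean of 13.0 ± 2.82 (SD, n = 2), and its region also covered an end of Rprd1b. Its partner Tti2 had 8.92 and 9.71, a mean of 9.32 ± 0.559 (SD, n = 2). The largest by far was Pik3r2, a regulatory subunit of PI3 kinase, with folds of 33.0 and 47.9, from 119 and 147 fragments, in a region of 3627 bp on chromosome 8 from 70774645 to 70778271. That region also reached an end of Mast3 and holds the noncoding gene 2010320M18Rik. Its IDR was 0.511 although both libraries were high there. The lowest mean fold among the further genes was 4.18 ± 0.145 (SD, n = 2), at Mapkap1, which encodes a subunit of mTORC2.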

How the data were processed

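Per the submitters' processing notes, the tools were FastQC 0.11.8, BWA 0.7.17-r1198 and MACS2 2.1.2 with build mm10 (GRCm38). Duplicate removal is not given in the sources used here. The authors deposited a peak list per ChIP library, with fold enrichment as a ratio, −log10 p and −log10 q values and summit positions, and a combined list of both libraries with an IDR score. On the scale of that score, an IDR of 0.05 is written as 540 and an IDR of 0.01 as 830. In the combined list 6 columns of values for single samples were not used. Fragments and background at each summit were recovered from the deposited fold and −log10 p with the MACS2 formula. Exactly 1 whole number fitted within 0.001 of the deposited −log10 p at 100% of peaks, and 100% of 500 simulated summits were recovered. Where several peaks overlapped a region, the one with the highest −log10 p was used. Genes were RefSeq spans on GRCm38.p6. Of 55 further pathway genes, 54 matched by symbol; 1 of those with a region is not reported here. Promoter sequences were found for 39 of 44 genes (47 starts).

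The genes, lists and named genes (every listed gene, by whether a peak lay at an end in any list) were chosen with earlier results of these data known. Counts are given beside those of all other protein-coding genes, with no test. Alternatives covered IDR score, window, summit, whole span, nearest gene, annotated starts, stricter q and each library by itself. Python 3.11.15, numpy 2.4.6, pandas 2.3.3 and scipy 1.17.1 were used. Intervals cover counting error only.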

Additional observations from a re-analysis of the deposited data

How the results depend on the processing

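The IDR limit moved the counts most. At a score of at least 540, 4 of the 44 genes and 3 of the 54 further genes were bound, and at 830, 1 (Pdpk1) and 0, where 0.389% of other genes were. Fewer regions enter at these limits, 608 and 75 of 1550. The other planned settings for the 11 bound genes gave 8 to 14. With only the nearest gene counted, 9 were bound (20.5%, against 5.51% of others). Leaving out 1 library gave 12 to 14 listed genes, 12 to 15 further genes and a median fold of 8.10 to 8.74. Within the subsets by neighbour and CpG content, chosen after seeing the data, 7, 4 and 7 genes were bound, since fewer genes enter. At least 2 copies of TTCG were in 11 of 47 promoters and TTCGG in 16, against 27 for TTCG. Promoters of other genes held at least 2 copies in 19.9%, TTCGG in 22.0% and TTCG in 49.1%. No paired analysis was possible because the inputs have no values of their own here. Fragments stand beside each fold in the report in place of an alternative value.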

Other observations

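The sequence CGGAAG, the core known for ETS-family transcription factors, was noticed in the printed promoters and searched on both strands (CGGAAG or CTTCCG) after those sequences had been seen. It was present at 7 of the 8 listed starts with a Deaf1 region (87.5%), Rheb being the exception, and at 8 of the 39 without one (20.5%). Prkag1 and Pdpk1, which have no TTCG in the window, held 3 matches and 1 match. Among other genes it was present at 69.8% of 1492 starts with a region and at 17.4% of 19724 without. The same contrast for TTCG was 70.8% and 47.4%. Within promoters of 20 to 29 CpG, CGGAAG was present in 75.3% of bound and 31.3% of unbound starts of other genes. The shares were 38.6% and 5.85% at 0 to 9 CpG, and 68.0% and 22.8% at 10 to 19. At 30 or more CpG they were 67.0% and 28.8%. These are descriptions of sequence, and no ETS factor was measured.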
